A study of Mus musculus with 96 samples.

Results

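Splicing factor genes were followed through 96 single cells of mouse acute myeloid leukemia. The members were the gene symbols that start with Srsf, U2af, Sf3a, Sf3b, Snrp or Hnrnp and had a mean over all cells of at least 1 TPM (a share of a cell's transcripts corrected for gene length, scaled to 1000000 per cell). The rule kept 53 of 55 such symbols, out of 23955 symbols in all: 10 Srsf, 3 U2af, 3 Sf3a, 6 Sf3b, 11 Snrp and 20 Hnrnp genes. Snrpn and Srsf12 were listed at 0 TPM in every cell and stayed out. The lowest means inside the rule were 2.20 TPM for Sf3a2, 2.21 TPM for Hnrnpul1 and 6.13 TPM for U2af2, so no member stood close to the threshold. The cells were c-Kit-selected splenocytes of 2 moribund leukemic mice, 48 cells from each. Both mice carried Flt3ITD/ITD and Dnmt3afl/- with MxCre: an internal tandem duplication on both Flt3 alleles, a Dnmt3a genotype given as fl/-, and a Cre recombinase driven by the interferon-inducible Mx1 promoter. Nothing here compares genotypes, and splenocytes of the control genotype were not analysed here. Within each mouse the cells were divided by their own expression: class II-high cells had 1000 TPM or more of H2-Aa, S100a8-high cells had that much S100a8, Mpo-high cells had that much Mpo, and the rest had none of these. With 1 animal per side, and with states cut from expression in the same cells, every value below is a description and no test was made.

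The spliceosome removes introns from precursor messenger RNA. Small nuclear ribonucleoproteins (snRNPs), most of them a small RNA bound by a ring of Sm proteins, recognize the ends of the intron and its branch point. U2AF binds the end of the intron, SF3a and SF3b hold the U2 snRNP at the branch point, SR proteins (the Srsf genes) mostly promote the use of nearby exons, and hnRNPs bind nascent transcripts and often oppose that use. SF3B1, SRSF2 and U2AF1 are recurrently mutated in human myeloid neoplasms, and the values below are RNA levels of their mouse genes, which say nothing about mutations.

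Promoter sequences are shown for 3 members because of how their levels compared between cell states below: Srsf6 and Hnrnpa1 are among the 4 members that were lowest in class II-high cells when each is ranked by its smaller difference of the 2 mice, and Hnrnpa2b1, a close relative of Hnrnpa1, differed by -1.13 and -0.06. Each is the 250 bases before a RefSeq start (GRCm38.p6), chosen where no exon of the GENCODE M21 annotation overlapped the window, and capitals mark GGGCGG (the GC box bound by Sp1) or CCAAT (the CCAAT box) on either strand. The windows are chr2:162931258-162931507 (+) for Srsf6, chr15:103240147-103240396 (+) for Hnrnpa1 and chr6:51469895-51470144 (-) for Hnrnpa2b1.
Srsf6: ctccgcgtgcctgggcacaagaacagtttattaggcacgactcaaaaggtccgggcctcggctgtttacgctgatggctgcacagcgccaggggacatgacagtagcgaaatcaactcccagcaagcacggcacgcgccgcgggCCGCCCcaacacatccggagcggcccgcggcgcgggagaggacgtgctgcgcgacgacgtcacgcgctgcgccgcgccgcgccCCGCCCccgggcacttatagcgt
Hnrnpa1: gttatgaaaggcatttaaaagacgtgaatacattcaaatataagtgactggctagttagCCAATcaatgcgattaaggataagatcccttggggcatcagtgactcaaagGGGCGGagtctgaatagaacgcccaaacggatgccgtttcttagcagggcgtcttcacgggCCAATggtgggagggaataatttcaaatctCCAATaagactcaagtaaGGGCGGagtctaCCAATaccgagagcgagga
Hnrnpa2b1: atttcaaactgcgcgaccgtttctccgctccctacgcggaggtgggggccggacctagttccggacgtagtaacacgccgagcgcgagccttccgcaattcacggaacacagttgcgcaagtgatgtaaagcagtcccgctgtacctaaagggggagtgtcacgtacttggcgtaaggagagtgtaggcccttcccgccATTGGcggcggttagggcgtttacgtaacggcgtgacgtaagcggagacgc
Srsf6 had 2 GC boxes and no CCAAT box, Hnrnpa1 had 2 GC boxes and 4 CCAAT boxes, and Hnrnpa2b1 had 1 CCAAT box and no GC box. Of the 53 members, 46 had RefSeq promoters. They had 61 windows, of which 13 had no GENCODE M21 exon. The shares below use all windows, and a gene counted when any of its windows held the motif. GGGCGG was in 71.7% of those 46, against 63.1% of the 8336 matched genes with a mean of at least 1 TPM, and CCAAT in 47.8% against 40.8%. The ETS core CCGGAAG, a motif of the ETS factors, was in 15 of 46 (32.6%) against 16.7%, among them Srsf5, Srsf7, Srsf11, Sf3a1, Sf3a2, Sf3a3, Sf3b2, Sf3b6, Snrpg and Hnrnpf. TATAAA, the TATA box, was in 10.9% against 7.62%. Over all 27025 matched genes the shares were 35.4% for the GC box, 37.5% for CCAAT, 7.83% for the ETS core and 14.3% for TATAAA. Where these motifs overlapped each other, each was counted. A match is a stretch of letters and not a measured site.

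The states were checked against marker genes. All 8 class II and dendritic markers averaged at least 10 TPM in class II-high cells, with a median sum of 87375 and 86719 TPM in the mice, against 39.1 and 52.8 TPM in the rest. The 10 S100a8-high cells of mouse 2 had a median of 423149 TPM in 7 late neutrophil markers. The 1 S100a8-high cell of mouse 1 had S100a9 at 0 and 103081 TPM of granulocyte-monocyte progenitor markers, so it is shown and not read as a state. Among the rest, 1 or more cells of mouse 1 reached 23378 TPM of megakaryocyte and 9240 TPM of erythroid markers, so the rest is not a single cell type. Although the cells were selected on c-Kit, 5 stem and early progenitor markers, Kit among them, summed to a median of 976 and 731 TPM in rest cells and 40.9 and 21.9 TPM in class II-high cells. Mouse 1 had 14 class II-high, 1 S100a8-high, 13 Mpo-high and 20 rest cells, and mouse 2 had 20, 10, 12 and 6. In mouse 1, 1 cell and in mouse 2, 3 cells passed more than 1 threshold and took the first state in that order. The labels' protocols name 2 independent capture rounds without tying them to the mice. In the TPM column names, all cells of mouse 1 carry 1 prefix and all cells of mouse 2 another. What the prefixes stand for is not given. Mouse and prefix cannot be told apart, and the part of capture in any difference between the mice was not tested.

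Splicing factors were abundant and widely detected in these cells. Over all cells the members summed to 11626 TPM, of which Hnrnp genes held 38.7%, Snrp genes 28.5%, Srsf genes 23.9%, Sf3b genes 6.85%, Sf3a genes 1.10% and U2af genes 0.934%. The 10 most abundant members held 57.6% of that sum. In mouse 1, 39 of 53 members reached 10 TPM in at least 24 of the 48 cells, against 16.8% of the 11015 genes with a mean of at least 1 TPM. In mouse 2 it was 34 of 53, against 12% of those genes. The gap was smaller among abundant genes: among genes with a mean of at least 100 TPM, 28 of 29 members (96.6%) were that frequent in each mouse, against 83.4% and 69% of all such genes. The order of the spread depended on the level: the median standard deviation of log2(TPM + 1) within a mouse was 2.82 for the 53 members against 2.18 for all genes tested, 2.87 against 2.65 at a mean of at least 10 TPM, and 2.90 against 3.47 at a mean of at least 100 TPM.

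**Figure D1:**
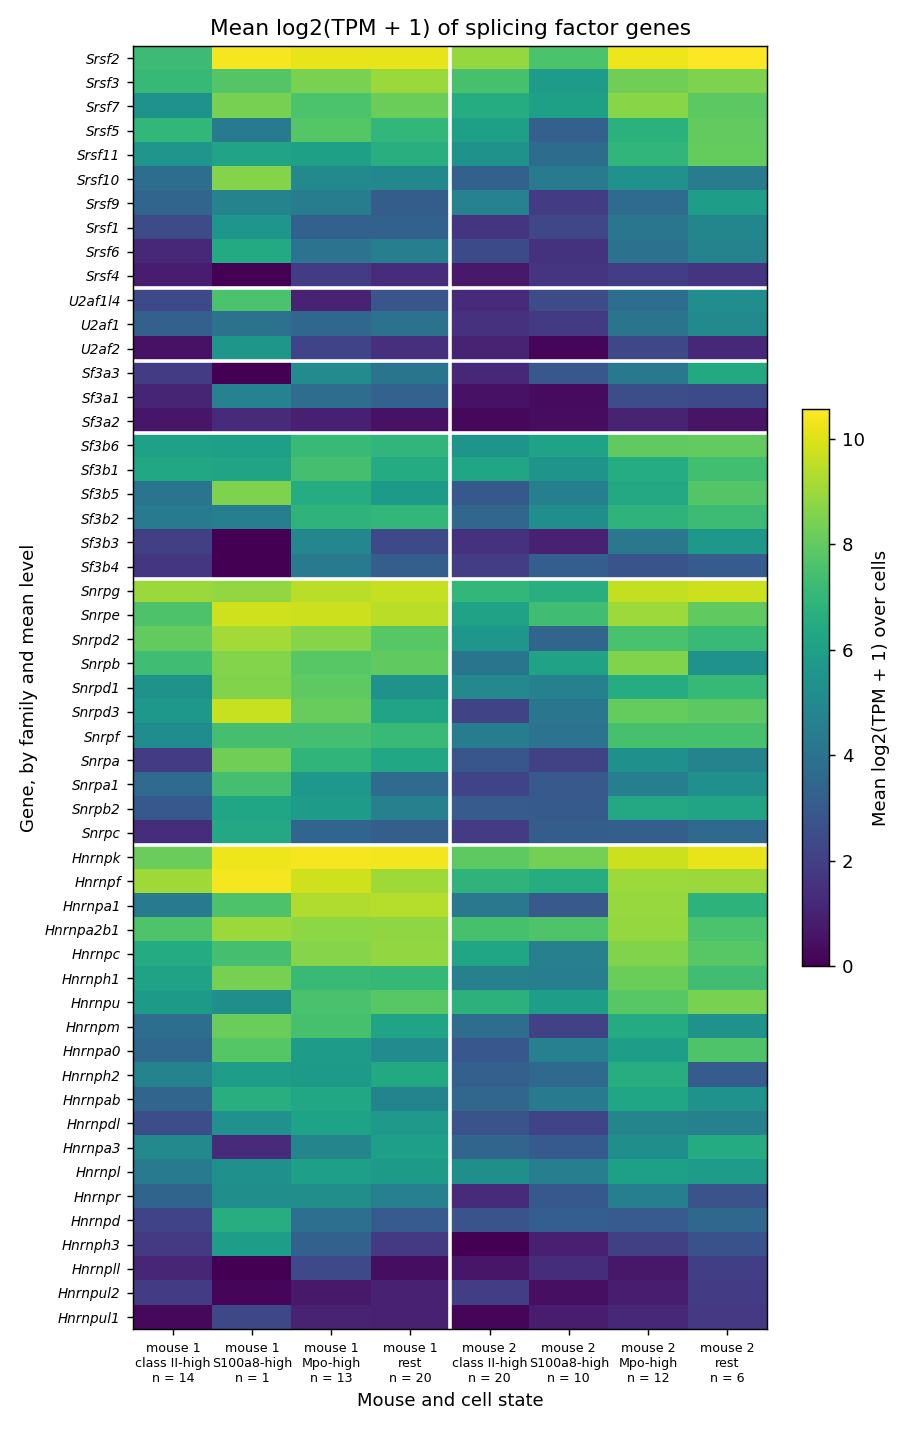
Mean log2(TPM + 1) of each of the 53 members (vertical axis, grouped by family and ordered by mean level) in each mouse and cell state (horizontal axis, with the number of cells). Srsf2, Hnrnpk, Snrpg and Snrpe stay bright in most columns, while the class II-high and mouse 2 S100a8-high columns are darker for most genes; the single S100a8-high cell of mouse 1 is 1 cell.

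Among the SR proteins, Srsf2 was the most abundant member of all, at a mean of 1220 TPM. In mouse 1 its levels ran from 0.410 through a median of 1013 to 5814 TPM, and in mouse 2 from 1.31 through 933 to 8756 TPM. It reached 10 TPM in 45 and 46 of 48 cells, and the mice overlapped almost fully. Srsf2 (chromosome 11, 116849901 to 116853094, minus strand, GRCm38) overlaps the coding genes Mfsd11 and Mettl23. Where reads are counted without strand, such partners cannot be told apart, which holds for 14 of the 53 members, Hnrnpk among them. Srsf3, the smallest SR protein, and its close relative Srsf7 averaged 451 and 378 TPM. Srsf1, the founding SR protein, averaged 50.8 TPM and its relative Srsf9 56.0 TPM, each at 10 TPM in fewer than 30 cells of either mouse. Srsf4 was the lowest of the family at 18.3 TPM and reached 10 TPM in 10 cells of each mouse.

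U2af1, the small subunit that reads the terminal dinucleotide of the intron, averaged 43.8 TPM, and its relative U2af1l4 averaged 58.6 TPM. They differed in spread: U2af1 reached 10 TPM in 27 and 22 cells, and U2af1l4 in 15 and 19. The median of U2af1l4 was 0 TPM in both mice and its highest cells had 991 and 329 TPM. U2af1l4 overlaps Psenen, so its reads are uncertain. U2af2, the large subunit that binds the polypyrimidine tract, averaged 6.13 TPM and reached 10 TPM in 10 and 11 cells.

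Among the branch-point proteins, Sf3b6, which contacts the branch region, was the highest at 209 TPM, followed by Sf3b1, the scaffold of SF3b, at 184 TPM. Sf3b1 ran from 0 through a median of 179 to 999 TPM in mouse 1 and from 0 through 115 to 552 TPM in mouse 2, and reached 10 TPM in 43 cells of each. Sf3b4 was the lowest of its family at 28.7 TPM. The SF3a complex was uneven. Sf3a3 averaged 103 TPM, Sf3a1 averaged 22.9 TPM and Sf3a2 averaged 2.20 TPM, although the proteins form a single complex. Sf3a2 reached 10 TPM in 4 and 1 cells.

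Of the snRNP genes, the Sm core was high. Snrpg averaged 768 TPM, Snrpe 696 TPM, Snrpd2 412 TPM, Snrpb 377 TPM, Snrpd1 293 TPM, Snrpd3 267 TPM and Snrpf 161 TPM. Snrpg reached 10 TPM in all 48 cells of mouse 1, where it ran from 74.2 through 636 to 2973 TPM, and in 42 cells of mouse 2, where it ran from 0 through 538 to 2377 TPM. Snrpn, which encodes a near copy of the Snrpb protein, was listed at 0. The particle-specific proteins were lower. Snrpa of the U1 snRNP averaged 115 TPM and its U2 counterpart Snrpb2 averaged 93.4 TPM, and Snrpc of the U1 snRNP was the lowest of the family at 33.5 TPM. Snrpd1, Snrpd3 and Snrpa1, a U2 snRNP protein, were, with Hnrnpa1, the most variable members: the standard deviation of log2(TPM + 1) within mice averaged 3.73, 3.59, 3.49 and 3.88. Short genes such as Snrpg and Snrpe, and Hnrnpa1, have processed pseudogenes that can share reads, so their levels are uncertain.

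The hnRNP genes had means from 2.21 to 1005 TPM. Hnrnpk, a poly-C-binding hnRNP, had the highest mean of the family and reached 10 TPM in 46 cells of each mouse. In the F/H group, which binds G tracts, Hnrnpf averaged 728 TPM, Hnrnph1 276 TPM, Hnrnph2 128 TPM and Hnrnph3 22.7 TPM. In the A group, which is known for promoting exon skipping, Hnrnpa1 averaged 567 TPM, Hnrnpa2b1 477 TPM, Hnrnpa0 141 TPM and Hnrnpa3 65.1 TPM. Hnrnpa1 and Hnrnpa2b1 had like means and unlike spread: Hnrnpa2b1 reached 10 TPM in 46 and 45 cells and Hnrnpa1 in 41 and 32. Hnrnpl averaged 62.2 TPM and reached 10 TPM in 46 and 44 cells, whereas Hnrnpll, its relative known for alternative splicing in activated lymphocytes, averaged 10.4 TPM and reached 10 TPM in 7 cells of each mouse. Hnrnpul1, a relative of Hnrnpu, was the lowest of the family.

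The share of a cell's transcripts given to the 53 genes differed between states. In mouse 1 it ran from 0.516% through a median of 0.929% to 1.30% in class II-high cells, from 1.06% through 1.5% to 2.48% in Mpo-high cells and from 1.05% through 1.43% to 2.39% in the rest. In mouse 2 it ran from 0.539% through 0.764% to 1.53% in class II-high cells, from 0.167% through 0.538% to 1.05% in S100a8-high cells, from 0.709% through 1.46% to 2.22% in Mpo-high cells and from 1.17% through 1.57% to 1.84% in the rest. Mpo-high and rest cells overlapped widely in both mice. S100a8-high cells all lay below every rest cell of mouse 2, and class II-high cells overlapped the rest only at their upper end.

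**Figure D2:**
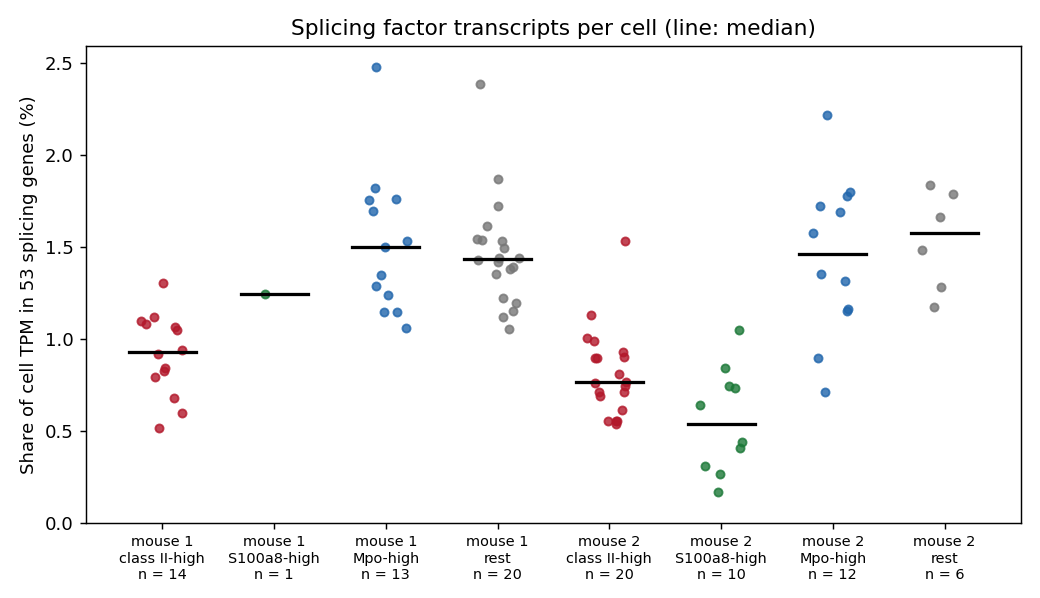
Percent of each cell's TPM in the 53 splicing factor genes (vertical axis) by mouse and state (horizontal axis, with the number of cells); each point is 1 cell and the line is the median. Class II-high medians were 0.929% and 0.764% and the S100a8-high median of mouse 2 was 0.538%, below the Mpo-high and rest medians of 1.43% to 1.57%.

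A few very abundant genes take up much of the total in some states. In class II-high cells the top 10 genes took a median of 22.4% and 24.2% of TPM, against 54.8% in S100a8-high cells of mouse 2 and between 8.93% and 9.53% in Mpo-high and rest cells. Taken over the remaining transcripts only, a calculation added after the data were seen, the median share of the splicing genes was 1.19% in class II-high, 1.66% in Mpo-high and 1.58% in rest cells of mouse 1. In mouse 2 it was 1.03%, 1.62% and 1.77%, and 1.00% in S100a8-high cells. The order of class II-high and rest cells was the same on this scale, and the S100a8-high median lay close to the class II-high median. Fewer genes were also detected in those states: cells had a median of 2922 and 2581 genes at 1 TPM or more in class II-high and 2821 in S100a8-high cells, against 3588 and 4252 in the rest.

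The number of splicing genes at 10 TPM moved with the number of genes detected. Class II-high cells had a median of 29.5 and 25 of the 53, S100a8-high cells of mouse 2 had 30.5, Mpo-high cells 41 and 37, and rest cells 36.5 and 40. Across the 48 cells of a mouse, the number of members at 10 TPM and the number of detected genes had a Pearson correlation of 0.84 in mouse 1 and 0.90 in mouse 2 (Spearman 0.82 and 0.94). Both counts come from the same libraries and share their depth and amplification. Because the number of detected genes itself differed between the states, a fit that removes it also removes part of any difference between them, and the part of detection was not tested.

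**Figure D3:**
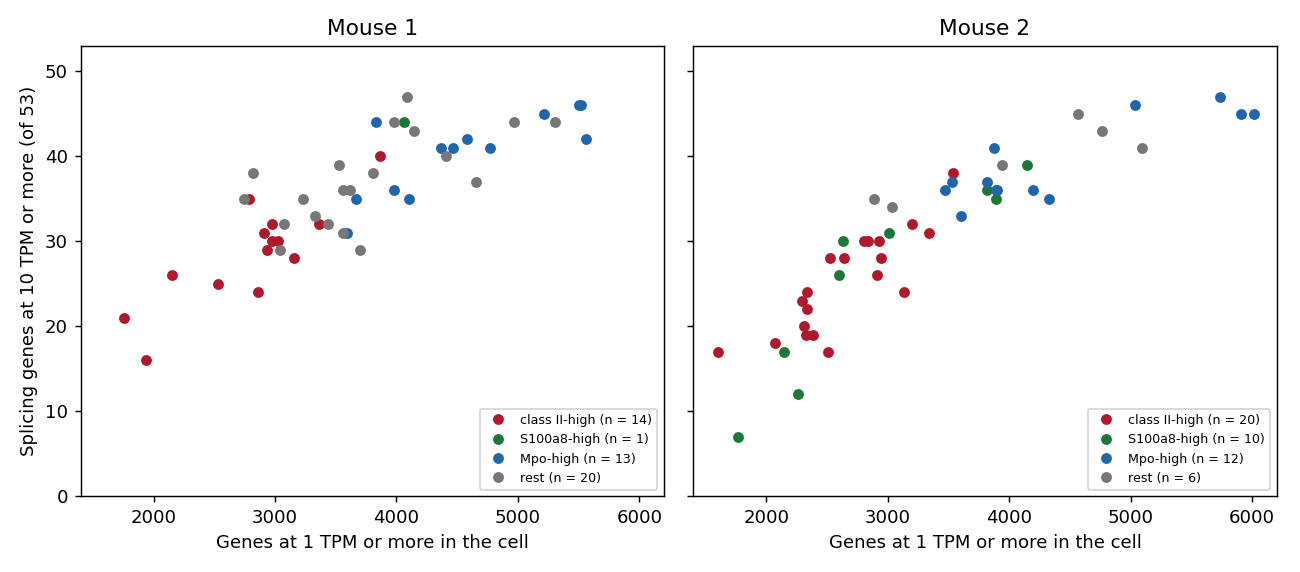
Number of the 53 splicing genes at 10 TPM or more in a cell (vertical axis) against how many genes that cell had at 1 TPM or more (horizontal axis), with 1 panel per mouse and cells coloured by state. The counts run together over 48 cells (Pearson 0.84 and 0.90), and class II-high cells sit mostly at the lower left.

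In class II-high cells the splicing genes were lower than in the rest in both mice. On the scale of mean log2(TPM + 1), the median difference of the members was -1.12 in mouse 1 and -1.90 in mouse 2, against -0.43 and -0.53 over all 11015 genes tested. Of 53 members, 28 were lower by at least 1 in mouse 1 and 45 in mouse 2, against backgrounds of 30.2% and 38% of all genes. In both mice together, 25 of 53 were lower by at least 1 (47.2%), against 19.3%, and 0 were higher by at least 1, against 4.11% (0 in either mouse alone, against 8.52% and 7.82%). By direction alone, 44 of 53 members were lower in both mice, against 50.5% of all genes. Hnrnpul2 was the 1 member higher in both, by 0.87 and 0.11, against 15.2% of all genes. Because the members are highly expressed, genes at a like level are the closer comparison. With a mean of at least 100 TPM, the median was -1.70 and -2.0 for members against -0.99 and -1.34 for all genes. The share of all genes lower by at least 1 in both mice also rose with level. It was 27.6% at a mean of at least 10 TPM and 39.3% at 100 TPM. The 47.2% of the 53 members also covers members below those levels, so it is not the share of a like set. With each cell's detected-gene number regressed out, the medians of the members were -0.24 and -0.45, against -0.07 and 0.03 over all genes. Then 3 of 53 members (5.66%) were lower by at least 1 in both mice, a share near the 5.47% of all genes. By the log2 ratio of mean TPM + 1, the medians of the members were -0.73 and -0.95, against -0.74 and -0.11 over all genes, and 9 of 53 members (17%) were lower by at least 1 in both mice, against 21.6% of all genes. The larger share of members than of all genes past 1 was thus not seen with either of these calculations.

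Ranked by the smaller difference of the 2 mice, the lowest members were Hnrnpa1, Sf3b2, Srsf6 and Hnrnpk. Hnrnpa1 ran from 0 through a median of 20.4 to 893 TPM in class II-high cells of mouse 1 and from 0 through 936 to 1766 TPM in its rest cells. In mouse 2 it ran from 0 through 18.7 to 1516 TPM and from 0 through 219.5 to 1546 TPM. The cells overlapped, but 8 of 14 and 12 of 20 class II-high cells reached 10 TPM against 19 of 20 and 5 of 6 rest cells, and the differences were -5.03 and -2.62. Srsf6, an SR protein that promotes exon use, had medians of 0.0900 and 0.375 TPM in class II-high and 57.7 and 40.9 TPM in rest cells, with differences of -3.29 and -2.37. Hnrnpk reached 10 TPM in 12 of 14 and 18 of 20 class II-high cells but at a lower level: its median was 621 against 1497 TPM in mouse 1 and 510 against 1293 TPM in mouse 2, with differences of -2.20 and -2.25. Sf3b2, another SF3b subunit, differed by -2.60 and -3.75.

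The members recurrently mutated in myeloid neoplasms had unlike values. Srsf2 differed by -2.94 and -1.68, with medians of 525 and 745 TPM in class II-high cells against 1201 and 1590 TPM in the rest. Sf3b1 had a median of 164 TPM in class II-high and 157 TPM in rest cells of mouse 1, and of 147 and 238 TPM in mouse 2, and differed by -0.16 and -1.14. U2af1 differed by -0.72 and -3.49. Class II-high and rest cells overlapped widely for Sf3b1, as they did for Hnrnpa2b1, which differed by -1.13 and -0.06. By family, the members lower by at least 1 in both mice were 6 of 10 Srsf, 0 of 3 U2af, 2 of 3 Sf3a, 3 of 6 Sf3b, 5 of 11 Snrp and 9 of 20 Hnrnp genes, again against 19.3% of all genes. Among all genes with a mean of at least 100 TPM the share was 39.3%.

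**Figure D4:**
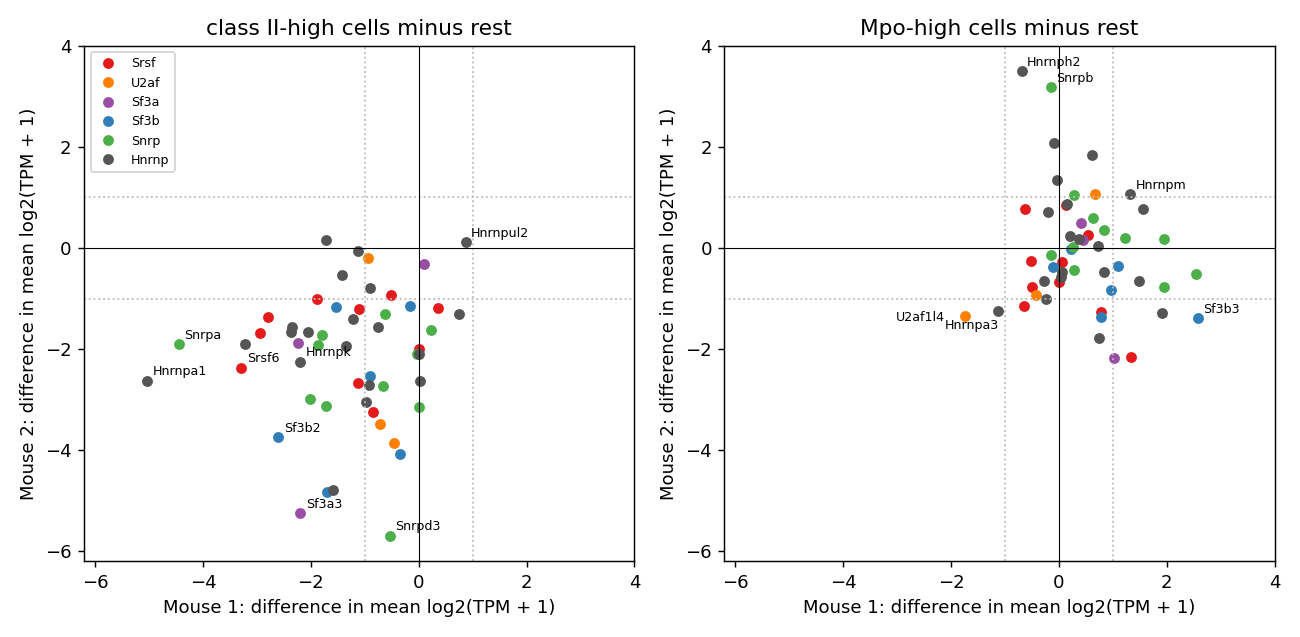
Difference in mean log2(TPM + 1) between class II-high and rest cells (left) and between Mpo-high and rest cells (right), in mouse 1 (horizontal axis) and mouse 2 (vertical axis), for each of the 53 genes coloured by family; dotted lines mark a difference of 1. On the left 44 of the 53 genes lie below 0 in both mice, against 50.5% of all genes tested, and on the right genes lie on all sides, with U2af1l4 and Hnrnpa3 past 1 in the lower and Hnrnpm in the upper direction.

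In the 10 S100a8-high cells of mouse 2, the median difference from its 6 rest cells was -2.45, against -0.40 over all genes. Of 53 members, 40 were lower by at least 1, against 36.1% of all genes, and 0 were higher, against 10.3%. At a mean of at least 100 TPM the medians were -2.69 for members and -1.54 for all genes. With the detected-gene number removed the median of the members was -1.25, against -0.05 over all genes, and 31 were lower by at least 1, against 23.5%. By the ratio of means it was -1.55, against -0.39, and against all other cells of mouse 2 in place of the rest it was -1.06, against -0.28. The SR protein genes Srsf5, Srsf11 and Srsf9, and Sf3b3, the large propeller subunit of SF3b, were lowest, with differences of -4.80, -4.34, -3.97 and -4.67. Srsf5 ran from 0 through 8.69 to 138.5 TPM in S100a8-high cells and from 25.4 through 423 to 882 TPM in the rest. A few hnRNP and Sm genes were level or above: Snrpb differed by 0.68, Hnrnph2 by 0.54, Hnrnpr by 0.20 and Hnrnpa2b1 by 0.11. Hnrnpa2b1 ran from 6.44 through 297 to 867 TPM in S100a8-high and from 46.4 through 225 to 593 TPM in rest cells, which overlapped. With 54.8% of TPM in 10 genes of these cells, the part of those genes in the differences was not tested beyond the shares given above.

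Mpo-high cells, which carry the azurophil granule genes of granulocyte-monocyte progenitors, had small median differences from the rest, of opposite sign in the mice. The median difference was 0.28 in mouse 1 and -0.25 in mouse 2, against 0.22 and 0.11 over all genes. In mouse 1, 12 of 53 members were higher and 2 lower by at least 1, against 21.8% and 5.68% of all genes. In mouse 2, 8 were higher and 11 lower, against 21.3% and 15.5%. In both mice, 2 members were lower by at least 1, against 1.63%: Hnrnpa3, an A-group hnRNP, at -1.12 and -1.25, and U2af1l4 at -1.75 and -1.34. Hnrnpm, an hnRNP known for its part in splicing during epithelial-mesenchymal transition, was the 1 member higher in both, by 1.32 and 1.07, against 7.57%. Hnrnpm had medians of 235 and 102 TPM in Mpo-high and 199 and 43.5 TPM in rest cells, with wide overlap. By direction alone, 18 of 53 members were higher in both mice, against 35.8% of all genes, and 11 were lower in both, against 16.5%. With Hnrnpm, the 4 highest by the smaller difference of the mice included Hnrnpab (1.56 and 0.78), Hnrnpr (0.62 and 1.83) and U2af2 (0.67 and 1.07). With Hnrnpa3 and U2af1l4, the 4 lowest included Srsf6 (-0.51 and -0.78) and Srsf11 (-0.65 and -1.14). The direction of the median changed with the setting: it was -0.43 in mouse 1 after removal of the detected-gene number, and 1.72 in mouse 2 against all other cells, where the median over all genes was 0.55.

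Between the mice, splicing genes were mostly lower in mouse 2 when all cells were taken, and not within every cell state. The median difference, mouse 2 minus mouse 1, was -0.58 over the members and -0.20 over all genes. Lower by at least 1 were 20 of 53 members, against 11.6% of all genes, and 0 were higher, against 1.59%. The Snrp genes stood lowest, with a median of -1.44 and 8 of 11 lower by at least 1, followed by Hnrnp genes with -0.98 and 10 of 20. Srsf genes had a median of -0.34 and 1 of 10, and none of the 6 Sf3b or 3 U2af genes was lower by 1. At a mean of at least 100 TPM the members' median was -0.98 and that of all genes -0.70. Of all genes at that level, 35.2% were lower by at least 1 and 5.54% higher. The 37.7% of the 53 members also covers members below that level, so these shares are not of like sets.

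Hnrnpa1 differed most, by -2.39. It ran from 0 through 711 to 2241 TPM in mouse 1 and from 0 through 69.1 to 2150 TPM in mouse 2, so the highest cells were alike and more cells were low in mouse 2. Snrpd2, an Sm core gene, differed by -2.31, with medians of 499 and 152 TPM. Snrpb differed by -1.97, with medians of 341 and 98.0 TPM. The other largest differences of a family were -1.61 for Sf3a1, -1.27 for Srsf5, -0.98 for Sf3b2 and -0.98 for U2af1. Srsf2, at -0.16, was nearly level.

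The mice held different numbers of each state, and the comparison within a state was not the same. In rest cells only (20 and 6 cells) the median of the members was 0.33, against -0.002 over all genes, with 9 lower and 16 higher by at least 1, against 13.9% and 17.7% of all genes. In class II-high cells it was -0.40, against -0.01, with 15 lower and 5 higher, against 11.9% and 4.87%. In Mpo-high cells it was -0.07, against -0.04, with 10 lower and 3 higher, against 15.3% and 9.78%. These comparisons in class II-high and Mpo-high cells were added after the data were seen. Without S100a8-high cells it was -0.51. For Hnrnpa1 the median was 936 TPM in Mpo-high cells of mouse 1 and 1238 TPM in those of mouse 2, and 936 and 219.5 TPM in the rest. The log2 ratio of mean TPM, which weights high cells more, gave a median of -0.41, against -0.30 over all genes, and 4 of 53 members lower by at least 1 (7.55%), against 25.8% of all genes. With the detected-gene number removed the median was -0.23, against -0.08, and 13 members were lower, against 5.99%.

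In other lists of the pathway, chosen with earlier results of these data known, some genes were lower in class II-high cells too. Of 58 other spliceosome genes, 24 were lower by at least 1 in both mice (41.4%) and 0 higher, against 4.11% of all genes higher. Of 8 kinases that phosphorylate SR proteins, 5 were: Clk1 differed by -3.82 and -1.31, Clk4 by -2.84 and -2.56, and Srpk1 by -4.02 and -3.50. Other splicing regulators gave 15 of 37, with Ptbp1, a repressor that binds polypyrimidine tracts, at -1.90 and -3.91. The helicase gene Ddx5, at 0.29 and 0.51, was not lower. Of 14 genes that assemble snRNPs, 6 were lower by at least 1 in both mice. Of 12 exon junction complex genes 3 were (25%), a share near the background. Rnps1 was at -2.98 and -5.44, while Rbm8a, at 0.002 and 0.05, was not lower. By direction alone, 8 of these 12 were lower in both mice, against 50.5% of all genes. Cell cycle genes were lower too: 14 of 18 S phase genes and 8 of 22 G2 and M phase genes were lower by at least 1 in both mice. The background for all of these is 19.3% of all genes tested. It was 27.6% of genes with a mean of at least 10 TPM and 39.3% of those with at least 100 TPM. The lists were not recomputed with the detected-gene number removed or by the ratio of means. Across the 48 cells of a mouse the splicing share and the mean log2(TPM + 1) of the S phase genes had a Pearson correlation of 0.66 and 0.53 (Spearman 0.76 and 0.59), and with the G2 and M phase genes of 0.36 and 0.39 (Spearman 0.48 and 0.33). The points share libraries and the fixed total of TPM, and the part of the cell cycle in the state differences was not tested.

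Once the detected-gene number was removed, single members followed each other little from cell to cell. Before that, the mean log2(TPM + 1) of the members had a Pearson correlation of 0.82 and 0.90 with that number. Pairs before removal, and pairs of all genes at a like level, are not given here. After removal of the detected-gene number within a mouse, the mean Spearman correlation over 1378 pairs of members was 0.05 in mouse 1 and 0.03 in mouse 2 over 48 cells, and 2 and 1 pairs exceeded 0.5. By the same measure the G2 and M phase genes averaged 0.56 and 0.60 and the S phase genes 0.29 and 0.24. Cells listed at 0 TPM for a gene are ordered by the fitted term alone. Genes at 0 in many cells can therefore correlate through the fit. G2 and M phase genes reached 10 TPM in 6 to 19 cells of mouse 1 and 7 to 16 of mouse 2. The median member did so in 35 and 29 cells. The part of this in the contrast was not tested. Within families the mean was highest for Snrp genes among those with more than 3 members, at 0.09 and 0.10. The pairs most alike in both mice were Hnrnpa1 with Hnrnpk (0.51 and 0.36), Srsf3 with Srsf7 (0.35 and 0.33) and Hnrnph3 with Hnrnpul1 (0.33 and 0.51). Hnrnph3 and Hnrnpul1 each had a median of 0 TPM in both mice, so the fit can add to their correlation. The pairs named are the highest of many, the cells share libraries and states, and the values are descriptions.

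The other deposited table, in RPKM (reads scaled by gene length and library size), held 47 of the 53 members. Most of its values lay at a floor of the gene, and the levels of some members were of another order: Srsf2, the highest by TPM, averaged 0.408 RPKM, with 6 of 96 cells above the floor, while Sf3b2 averaged 1078 RPKM with 82 cells above it. In that table the median difference between the mice was -0.03, against -0.007 over the 7656 tested genes it held, 2 members were lower by at least 1, against 1.49%, and 29 of 47 had the same sign as by TPM.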

How the data were processed

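Each of the 96 samples was 1 cell, and cells of 1 mouse are not replicates, so no test was made. The authors deposited TPM values, made with RSEM going by the table's name, scaled to 1000000 per cell, and RPKM values under the name of AltAnalyze. The submitters' processing notes name TopHat2, RSEM and Bowtie2, and the builds mm10 and mm9; versions, and which build belonged to which table, are not given in the sources used here. TPM keeps no read depth, so depth is unknown and genes at 1 TPM or more stand in its place. Values were log2(TPM + 1), averaged over cells, over all 11015 genes with a mean of at least 1 TPM, a scale that shrinks differences of low genes. The members and lists were chosen with earlier results of these data known. Genes were named by rule: Sf3b1, Srsf2 and U2af1; per family the highest, the lowest and the largest mouse difference; the 4 lowest and 4 highest members of each state comparison; the 4 most frequent and 4 most variable members; fixed related pairs. Others in the text were named after their values were seen. Alternatives changed the pseudocount (0.1), filter, detection fit, centring, averaging, table, state threshold (500 TPM), reference cells and detection level. Calculations used Python 3.11.15, pandas 2.3.3, numpy 2.4.6 and SciPy 1.17.1. The mean differences and the detected-gene fit between the mice were tested on cells redrawn from mouse 1 with known shifts. The other steps, the fit within each mouse among them, were not tested this way. No doublet caller was run; per the labels' protocols, wells were visually scored for single cells.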

Additional observations from a re-analysis of the deposited data

How the results depend on the processing

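Of 150 values recomputed under an alternative, 120 had the reported direction and a median within 1 SD over cells (up to 1.37) or a count within 1.5 times, 26 moved further and 4 changed sign; the cause was not tested. That limit is wide: with the detected-gene number removed, the class II-high median of mouse 1 went from -1.12 to -0.24 and the mouse median from -0.58 to -0.23, which was -0.03 in the RPKM table and -0.07 in Mpo-high cells, and the S100a8-high median went from -2.45 to -1.25. For mouse 2 minus mouse 1, the median of the members became 0.33 in rest cells only, with 9 lower and 16 higher by at least 1; the count lower was 13 with the detected-gene number removed, 4 by the ratio of means, 2 in the RPKM table and 10 in Mpo-high cells, and the count higher was 5 in class II-high and 3 in Mpo-high cells. For class II-high minus rest, removing the detected-gene number gave -0.45 in mouse 2 and 3 members lower in both mice (all genes 5.47%), and the ratio of means gave 9 (21.6%). For Mpo-high minus rest, removing the detected-gene number gave -0.43 in mouse 1, and 4 lower and 0 higher in both mice. Comparison with all other cells gave 1.72 in mouse 2 (all genes 0.55), 0 lower (1.40%) and 20 higher (17.5%). A mean of 100 TPM gave 0.011 in mouse 2 (all genes 0.41) and 0 lower in both mice (all genes 2.81%). The count higher was 2 with a pseudocount of 0.1, 0 when centred and 0 by the ratio of means, which gave 0 lower; a state threshold of 500 TPM gave 1 lower and 0 higher. For S100a8-high minus rest, comparison with all other cells gave -1.06 and a mean of 100 TPM gave 25 of 29 members lower (86.2%, against 59.9% of all such genes). At 100 TPM, 25 and 19 members were frequent in the mice. Counts with no share of all genes here or above describe the setting and are not read as results about the members. Alternatives that used a mean of 100 TPM or 1 state only were added after the data were seen. The 6 rest cells of mouse 2 limit every comparison with them, and unknown read depth leaves a listed 0 short of absence. No paired analysis was made, because no test was made and the cells of the 2 mice are different cells of different animals.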
